A study of Mus musculus with 12 samples.

Results

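Interferon-induced genes are the transcripts that cells switch on when type I or type III interferon binds its receptor, and 44 of them were followed here in whole mouse spinal cord after deletion of Ddx20 was induced. They were chosen by gene symbol and with earlier results of these data known. Counts of them set beside shares of all genes therefore describe the list and do not test it. All 44 were found among the 56953 genes of each deposited count table. All 44 were also among the 19278 genes with enough counts to be tested. Spinal cords came from mice with loxP-flanked Ddx20 alleles (Ddx20 flox/flox) crossed with Plp-CreER mice, labelled Ddx20 cKO, and from mice labelled Control, whose alleles the labels do not spell out; both were timed from tamoxifen. Plp-CreER is a tamoxifen-dependent recombinase driven by the Plp promoter, which is active in oligodendrocytes and other myelin-forming cells. Other cells of the cord are meant to keep the gene, but where it was deleted was not measured here. Cords were taken at 4 and at 4.5 weeks after tamoxifen, with 3 biological replicates per genotype and time and 12 libraries in all. Ages were not given.

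Interferons are secreted when sensors in the cytosol or endosome meet viral or misplaced cellular nucleic acid. Their receptors activate the kinases Jak1 and Tyk2, which phosphorylate Stat proteins such as Stat2, and these join Irf9 to form a complex that enters the nucleus and binds the interferon-stimulated response element in target promoters. Many target genes encode further sensors and signalling parts of the same pathway, so that a tissue under interferon carries a broad and recognisable set of transcripts. In the central nervous system, microglia, astrocytes, oligodendrocytes and neurons can all respond. Whole cord RNA does not assign a transcript to a cell type, and fewer cells of a type cannot be told apart in it from less RNA per cell.

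The promoters of these genes were searched for the core of the response element. Its letters were GAAA, any 2 bases and GAAA again, on either strand, in the 250 bases before the annotated gene start of the RefSeq promoter table (build GRCm38.p6, which is not the build of the count tables). Of the 44 genes, 35 had an entry, and 15 of those 35 (42.9%) held the core, against 936 of all 27025 genes in the table (3.46%) and 978 of all 32851 promoters (2.98%). The following promoters are shown because each is the one with the largest effect at 4 weeks among the genes of its role that hold the core. They are written 5′ to 3′ along the gene, with every match in capitals; a match on the opposite strand reads TTTC, any 2 bases and TTTC.
Oas3: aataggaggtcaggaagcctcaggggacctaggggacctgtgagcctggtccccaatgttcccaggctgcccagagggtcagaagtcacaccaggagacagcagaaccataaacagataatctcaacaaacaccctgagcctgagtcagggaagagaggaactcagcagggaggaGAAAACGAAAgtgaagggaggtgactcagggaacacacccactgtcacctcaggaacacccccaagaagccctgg
Stat2: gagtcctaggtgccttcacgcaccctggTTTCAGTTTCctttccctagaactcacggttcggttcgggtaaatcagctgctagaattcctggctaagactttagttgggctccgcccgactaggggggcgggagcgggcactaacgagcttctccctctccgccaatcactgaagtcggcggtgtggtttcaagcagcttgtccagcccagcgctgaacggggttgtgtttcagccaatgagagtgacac
Isg15: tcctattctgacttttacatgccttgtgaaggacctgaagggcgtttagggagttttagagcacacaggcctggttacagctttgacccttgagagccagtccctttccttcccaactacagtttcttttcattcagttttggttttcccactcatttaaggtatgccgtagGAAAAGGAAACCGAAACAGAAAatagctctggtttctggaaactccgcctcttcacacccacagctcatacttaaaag
Rsad2: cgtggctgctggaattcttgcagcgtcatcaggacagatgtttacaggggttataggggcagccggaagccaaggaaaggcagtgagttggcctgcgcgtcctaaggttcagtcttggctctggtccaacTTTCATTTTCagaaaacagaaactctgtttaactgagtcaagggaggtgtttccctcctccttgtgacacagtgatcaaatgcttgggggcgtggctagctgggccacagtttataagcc
Gbp3: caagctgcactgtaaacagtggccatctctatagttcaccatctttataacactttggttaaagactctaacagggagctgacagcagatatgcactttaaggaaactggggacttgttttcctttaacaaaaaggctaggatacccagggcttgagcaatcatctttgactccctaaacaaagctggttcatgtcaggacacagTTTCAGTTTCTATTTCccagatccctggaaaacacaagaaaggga
Trim30a: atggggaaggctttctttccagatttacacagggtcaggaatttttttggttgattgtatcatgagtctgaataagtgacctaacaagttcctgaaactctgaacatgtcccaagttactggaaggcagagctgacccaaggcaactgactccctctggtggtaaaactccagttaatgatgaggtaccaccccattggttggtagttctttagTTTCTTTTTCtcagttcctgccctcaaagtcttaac
The stretches lie at chr5:120777660-120777909 (minus strand), chr10:128270248-128270497 (plus strand), chr4:156200819-156201068 (minus strand), chr12:26456453-26456702 (minus strand), chr3:142559794-142560043 (plus strand) and chr7:104465194-104465443 (minus strand) of GRCm38.p6. In Isg15 the core occurs 3 times in overlapping copies, in Gbp3 there are 2 overlapping copies, and in the other promoters printed a lone match stands. Matches describe letters and are not measured binding sites. The gamma-activated site (TTC, any 3 bases, GAA) occurred in 8 of the 35 genes (22.9%) against 8.13% of all genes, and in Bst2 a match to it overlaps a match to the response element. The median log2 fold change of the 15 genes with the response element core was 3.25 at 4 weeks and 1.87 at 4.5 weeks, and that of the 20 genes without it was 1.84 and 1.81. The ranges of both sets overlapped widely.

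Library depth was similar throughout, with 33104560 to 47677267 counts and 23282 to 24999 detected genes per library. Transcript of the targeted gene was not reduced: Ddx20 held 11, 9.78 and 11.1 CPM (read counts scaled to a common library size and composition) in the controls and 10.2, 11.1 and 9.9 CPM in those labelled cKO at 4 weeks, and 9.16, 10.6 and 9.71 against 12.4, 11.1 and 13.3 CPM at 4.5 weeks. Its log2 fold change was -0.03 ± 0.103 SE (adjusted p 0.84) and 0.33 ± 0.102 SE (adjusted p 0.013). The rise at 4.5 weeks was not called without control 1 (adjusted p 0.06) or the library labelled cKO 3 (adjusted p 0.063) of that time. Gene counts do not resolve a deleted exon, so the genotype rests on the labels, and the libraries are called by their labels below. By the transcript Xist, the controls at 4 weeks were male, the libraries labelled cKO 1 and 2 of 4 weeks were female and the library labelled cKO 3 was male, and all 6 libraries of 4.5 weeks were female. Transcripts of neighbouring tissue differed between some libraries: the summed CPM of 4 Schwann cell genes was 244 in control 1 of 4.5 weeks, and that of 4 skeletal muscle genes was 136 in control 2 of that time and 31.4 in the library labelled cKO 3 of 4 weeks. The Schwann sums of 4 weeks were 67.8, 152 and 73.6 CPM in the controls and 31.5, 46.3 and 5.52 CPM in those labelled cKO. Blood genes (3) summed to 135, 191 and 85.3 CPM in these controls and 217, 59.4 and 43.4 CPM in libraries 1, 2 and 3 labelled cKO. At 4.5 weeks the blood sums were 35.6, 30.4 and 39.4 against 2.26, 5.53 and 1.21 CPM, all 3 genes being called lower (32.6% of all tested genes). The cord's own markers were high, with 4340.6 CPM or more summed over 6 neuronal genes in the 9 libraries other than those labelled cKO at 4.5 weeks, and 1558 to 1698 CPM in these.

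Interferon-induced genes were higher in the libraries labelled cKO at both times. Of the 44, 43 were higher and 0 lower at 4 weeks at an adjusted p below 0.05 (edgeR's quasi-likelihood test, adjusted over all tested genes), where 20.1% of all tested genes were higher and 17.2% lower. None of the 44 fell at an unadjusted p below 0.05 either, with edgeR, DESeq2 or limma-voom. At 4.5 weeks 40 were higher and 1 was lower, where 33.3% of all tested genes were higher and 32.6% lower. The median log2 fold change of the 44 genes was 2.44 at 4 weeks and 2.12 at 4.5 weeks, against 0.01 and 0.02 for all tested genes. Every library labelled cKO lay above every control of its time in 38 of the 44 genes at 4 weeks (24.1% of all tested genes) and in 41 at 4.5 weeks (36.8% of all tested genes). With limma-voom, 30 and 26 of the 44 were called higher, where 3724 and 6488 of all 19278 tested genes were. Without controls 1 and 2 of 4.5 weeks together, which leaves a lone control there, the median log2 fold change of the 44 genes at 4.5 weeks was 2.10.

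**Figure D1:**
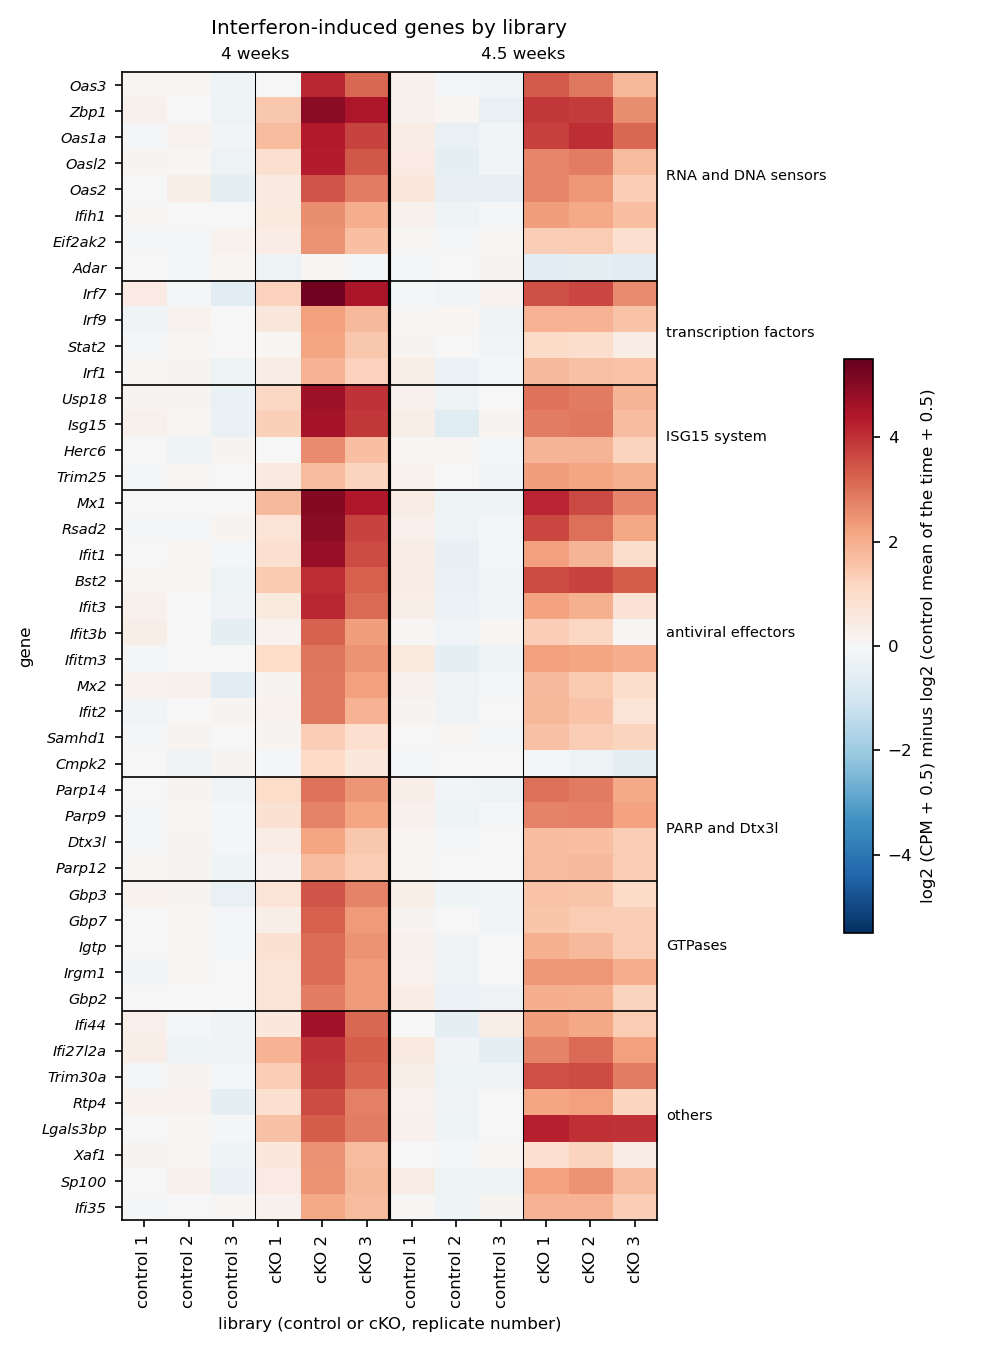
Log2 difference of each interferon-induced gene (one row each, grouped by role) from the mean of the controls of the same time, in each of the 12 libraries (columns), with 0.5 CPM added before the logarithm; red is higher and blue lower. The library labelled cKO 1 of 4 weeks is pale (median 0.61), and cKO 2 and 3 of 4 weeks are mostly deep red (3.08 and 2.38). The 4.5-week libraries labelled cKO are mostly red (2.24, 2.12 and 1.49), with Adar and Cmpk2 below 0 in each.

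The 3 animals labelled cKO at 4 weeks differed far more from each other in these genes than in the rest of the transcriptome. Their median log2 difference from the control mean was 0.61, 3.08 and 2.38 in libraries 1, 2 and 3. Over all tested genes that median lay within 0.01 of 0 in each, which the scaling brings about and which does not measure spread. The summed level of the 44 genes was 684, 3245 and 1990 CPM in the libraries labelled cKO, against 496, 496 and 487 CPM in the controls. Library 2 was highest, library 3 intermediate and library 1 lowest in all 44 genes, an order found in 22.2% of all tested genes and in 47.4% of the 3866 genes called higher at 4 weeks. Within this group the highest library exceeded the lowest 5.61-fold in the median interferon-induced gene, 1.22-fold in the median tested gene and 1.28-fold in the median gene called higher at 4 weeks. Library 2 exceeded library 1 by 1.25-fold to 92.0-fold, the last in Oas3. As the list was chosen with earlier results of these data known, this spread and order describe it and are no independent test.

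Even the lowest of these animals was above its controls in most of the genes. Library 1 labelled cKO lay above all 3 controls in 38 of the 44 genes, where 35.1% of all tested genes did, and libraries 2 and 3 in 43 each (39.5% and 37.6% of all tested genes). In library 1 the exceptions were Oas3, Adar, Herc6, Ifit3b, Mx2 and Cmpk2. It was more than 2-fold over the control mean in 12 genes: Zbp1, Oas1a, Irf7, Isg15, Usp18, Mx1, Bst2, Ifitm3, Parp14, Ifi27l2a, Trim30a and Lgals3bp. Library 2 was more than 2-fold over it in 43 genes, all but Adar, and library 3 in 41, all but Adar, Cmpk2 and Samhd1. The lowest and the highest of these animals were both female and the intermediate one male. With a sex term in the model 40 of the 44 genes were called higher at 4 weeks, as were 2634 of all 19278 tested genes. The calls of Herc6, Ifit2 and Cmpk2 were lost in that fit. The term can be estimated within these 3 animals alone, so it cannot settle what part sex had. Leaving out library 1, the median log2 fold change at 4 weeks was 2.86, and leaving out library 2 it was 1.88.

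At 4.5 weeks the animals were closer together. The summed level was 1938, 1803 and 1357 CPM in the libraries labelled cKO and 548, 476 and 512 CPM in the controls. Median log2 differences from the control mean were 2.24, 2.12 and 1.49, and the highest library exceeded the lowest 1.69-fold in the median interferon-induced gene against 1.18-fold in the median tested gene. Library 3 was lowest in 43 of the 44 genes (34.3% of all tested genes). In 37 genes every library labelled cKO of 4.5 weeks was below library 2 of 4 weeks (42.6% of all tested genes). In 38 genes every one was above library 1 of 4 weeks (41.7% of all tested genes).

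Among the sensors of foreign and misplaced nucleic acid, 7 of 8 were higher at 4 weeks and 7 at 4.5 weeks, with median log2 fold changes of 3.34 and 2.71. Of all tested genes 20.1% were higher at 4 weeks and 33.3% at 4.5 weeks, the shares to set beside this and each later role. Oas1a, an oligoadenylate synthetase that is switched on by double-stranded RNA and activates RNase L, held 1.23, 1.57 and 1.13 CPM in the controls and 5.53, 36.8 and 23.3 CPM in those labelled cKO at 4 weeks. At the later time it held 1.43, 0.597 and 0.806 against 18.9, 23.4 and 12.3 CPM. Neither time showed an overlap of the groups, and the log2 fold changes were 4.07 ± 0.58 SE (adjusted p 0.00016) and 4.27 ± 0.59 SE (adjusted p 3.2e-05). Zbp1, a sensor of left-handed nucleic acid that can trigger necroptosis, held 0.518, 0.369 and 0.205 CPM in the 4-week controls and 1.95, 26.2 and 18.4 CPM in those labelled cKO. It held 0.377, 0.311 and 0.0672 against 10.7, 10.4 and 3.99 CPM at 4.5 weeks. Library 1 of 4 weeks stayed below 2 CPM but above its controls, and the log2 fold changes were 5.4 ± 0.86 SE (adjusted p 0.00041) and 5.07 ± 0.89 SE (adjusted p 0.00025). Oas3, a larger synthetase of the same family, held 0.173, 0.154 and 0.0256 CPM in the controls and 0.115, 10.5 and 5.03 CPM in those labelled cKO at 4 weeks. Its 4.5-week values were 0.351, 0.156 and 0.134 against 6.93, 4.79 and 2.05 CPM. Library 1 of 4 weeks lay within the range of the controls, while every other library labelled cKO was far above it (log2 fold change 5.46 ± 1.18 SE, adjusted p 0.0032, and 4.42 ± 1.08 SE, adjusted p 0.0029). With limma-voom, Oas3 (adjusted p 0.23 and 0.08) and Zbp1 (0.081 and 0.068) were called at neither time. Among other large effects of 4 weeks, Rsad2 (0.11), Mx1 (0.065), Usp18 (0.055) and Irf7 (0.051) were not called with it at that time.

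The remaining sensors rose less or not at all. Oasl2, an OAS-like protein (3.53 ± 0.65 and 2.56 ± 0.64 SE), and Oas2 (3.16 ± 0.72 and 2.86 ± 0.73 SE) were higher at 4 and 4.5 weeks. Ifih1, the long double-stranded RNA sensor MDA5, had log2 fold changes of 2.04 and 2.13, and Eif2ak2, the kinase PKR that halts translation, of 1.81 and 1.26, all called. Adar, which edits adenosine to inosine in double-stranded RNA and so keeps the cell's own RNA from MDA5, did not share the rise. It held 152, 146 and 167 CPM in the controls and 127, 159.9 and 148 CPM in those labelled cKO at 4 weeks, with overlapping groups (-0.096 ± 0.09 SE, adjusted p 0.43). At 4.5 weeks it held 159, 172 and 192 against 115, 122 and 118 CPM, every library labelled cKO being lower than every control (-0.56 ± 0.09 SE, adjusted p 1e-04). The gene's counts cover a constitutive and an interferon-induced transcript together, and in the GENCODE M21 annotation its exons overlap Chrnb2 on the opposite strand, with 14.4% of its 50-base stretches shared, in a library kit that does not mark strand.

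All 4 transcription factors were higher at 4 weeks and 3 at 4.5 weeks, with median log2 fold changes of 1.63 and 1.80. Irf7, the factor that drives interferon alpha genes and amplifies the response, held 4.86, 3.2 and 2.15 CPM in the controls and 8.94, 152 and 86.7 CPM in those labelled cKO at 4 weeks. By 4.5 weeks the values were 2.54, 2.31 and 3.09 against 34.9, 39.6 and 18.8 CPM. No library labelled cKO overlapped the controls (log2 fold change 4.6 ± 0.77 SE, adjusted p 0.00058, and 3.55 ± 0.77 SE, adjusted p 0.0012). Irf9, the DNA-binding partner of Stat2, held 9.97, 13.1 and 11.2 against 18.1, 56.9 and 40.5 CPM at 4 weeks and 11, 11.2 and 9.07 against 40.8, 40.8 and 31.7 CPM at 4.5 weeks. Its groups were separate at each time (1.76 ± 0.303 SE, adjusted p 0.00069, and 1.86 ± 0.304 SE, adjusted p 0.00013). Stat2 itself held 25.5, 28.5 and 25.8 against 28.8, 121 and 75.8 CPM at 4 weeks and 28.4, 25.5 and 22.7 against 52.9, 51.1 and 34.4 CPM at 4.5 weeks. The libraries labelled cKO were above the controls at each time, but the test called the difference at 4 weeks (1.5 ± 0.36 SE, adjusted p 0.0062) and not at 4.5 weeks (0.85 ± 0.36 SE, adjusted p 0.052). Without library 2 labelled cKO, the value of Stat2 at 4 weeks was 0.97 (adjusted p 0.03). The 4 groups share 1 estimate of the spread, so the 4-week animals bear on the 4.5-week call. Without library 1 labelled cKO of 4 weeks the 4.5-week value of Stat2 was 0.85, and it was called (adjusted p 0.0011). Irf1, a factor induced by interferon gamma as well, held 6.96, 7.38 and 5.32 against 8.92, 25.7 and 16.5 CPM at 4 weeks and 7.56, 4.67 and 5.66 against 21.5, 19.2 and 18.7 CPM at 4.5 weeks. Its groups did not overlap, and its 4.5-week animals were nearly level (1.38 ± 0.3 SE, adjusted p 0.0033, and 1.73 ± 0.302 SE, adjusted p 0.00023).

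**Figure D2:**
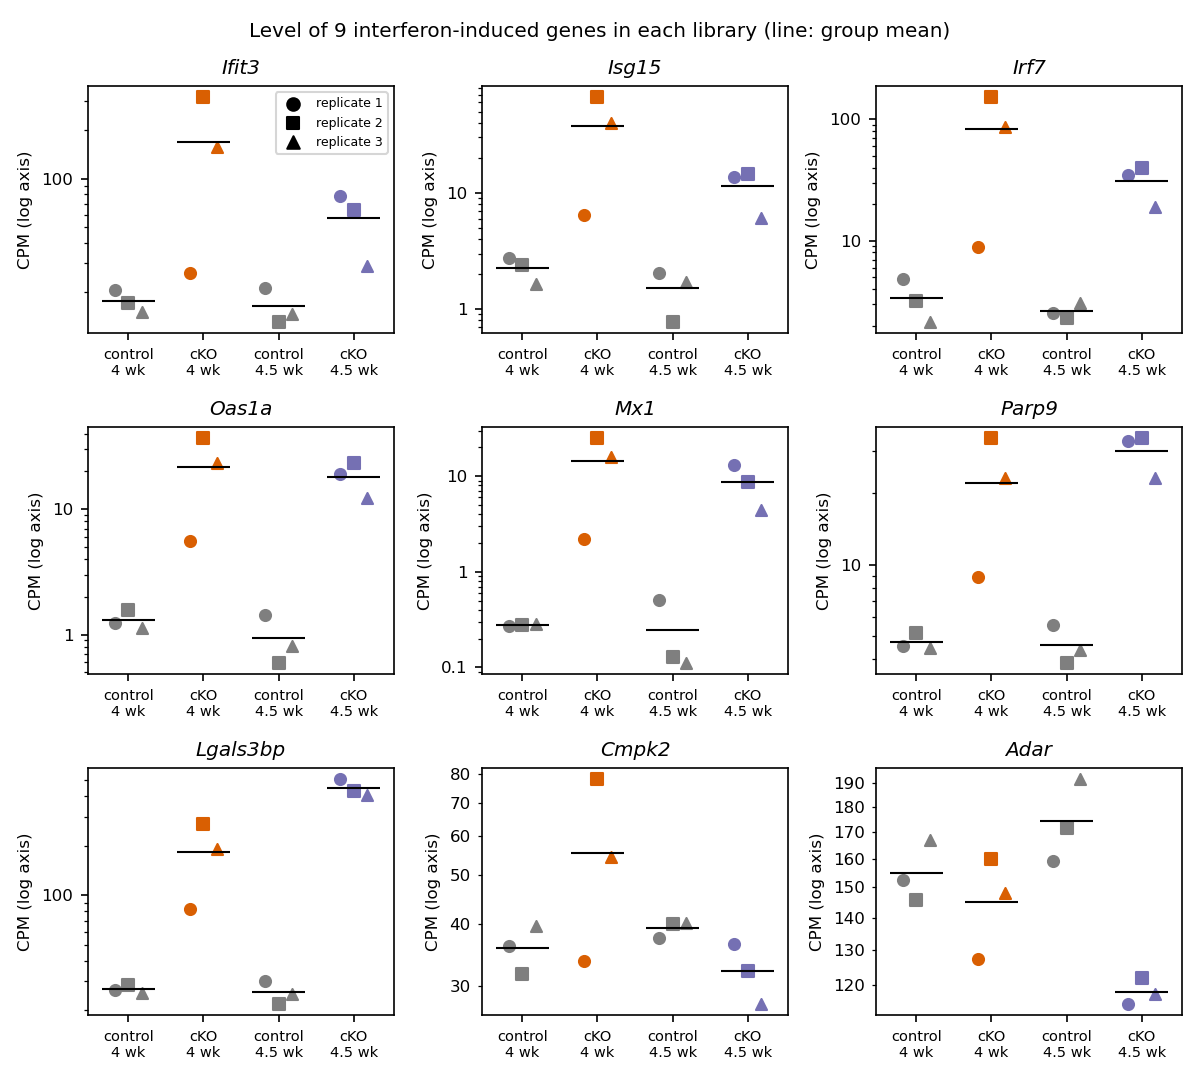
CPM of 9 interferon-induced genes in each library (log axis), with circles, squares and triangles for replicates 1, 2 and 3 and a line at the group mean. In 7 of the panels replicate 1 labelled cKO of 4 weeks sits above the grey controls and below replicates 2 and 3; Cmpk2 overlaps its controls through replicate 1, and Adar is lower at 4.5 weeks.

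All 4 genes of the ISG15 system were higher at each time, with median log2 fold changes of 2.96 and 2.56. Isg15, a ubiquitin-like protein that is attached to new proteins, held 2.76, 2.4 and 1.64 CPM in the controls and 6.39, 66.5 and 39.9 CPM in those labelled cKO at 4 weeks. It held 2.06, 0.778 and 1.72 against 13.7, 14.4 and 6.12 CPM at 4.5 weeks. The groups were separate, and library 3 of 4.5 weeks was no higher than library 1 of 4 weeks (4.05 ± 0.69 SE, adjusted p 0.00062, and 2.9 ± 0.69 SE, adjusted p 0.0024). Usp18, which removes ISG15 and blocks the interferon receptor, held 1.95, 2 and 1.25 against 4.36, 56.6 and 34.2 CPM at 4 weeks and 1.83, 1.14 and 1.45 against 15.3, 13.8 and 6.65 CPM at 4.5 weeks. All libraries labelled cKO exceeded their controls (4.2 ± 0.71 SE, adjusted p 6e-04, and 3.01 ± 0.696 SE, adjusted p 0.002). Herc6, the mouse ligase for ISG15, held 5.85, 4.74 and 6.42 against 5.82, 37.3 and 18.9 CPM at 4 weeks and 6.1, 6.07 and 5.39 against 22.7, 22.4 and 14.3 CPM at 4.5 weeks. Library 1 of 4 weeks was at the level of the controls, and without library 2 the log2 fold change of 4 weeks moved from 1.86 (adjusted p 0.0072) to 1.12. Trim25, a ubiquitin ligase that acts with the RNA sensor RIG-I, held 9.38, 10.9 and 9.85 against 14.4, 35.3 and 24.1 CPM at 4 weeks and 12.8, 10.9 and 9.92 against 57.3, 52.3 and 45.4 CPM at 4.5 weeks. Unlike Isg15, its 4.5-week libraries labelled cKO were all above those of 4 weeks (1.29 ± 0.24 SE, adjusted p 0.0012, and 2.21 ± 0.24 SE, adjusted p 3.7e-06).

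Direct antiviral effectors formed the largest group, and all 11 were higher at 4 weeks and 9 at 4.5 weeks, with median log2 fold changes of 2.43 and 1.81. Mx1, a dynamin-like GTPase that traps viral nucleoproteins, held 0.271, 0.277 and 0.281 CPM in the controls and 2.21, 24.9 and 16 CPM in those labelled cKO at 4 weeks. At 4.5 weeks it held 0.502, 0.13 and 0.112 against 13.2, 8.76 and 4.38 CPM. It had the largest fitted log2 fold change of the 44 genes at each time, without overlap of the groups (5.69 ± 0.85 SE, adjusted p 0.00025, and 5.15 ± 0.85 SE, adjusted p 0.00015). Bst2, or tetherin, which holds budding virus at the cell surface, held 5.92, 6 and 4.45 against 15.6, 99.5 and 58.3 CPM at 4 weeks and 4.95, 2.59 and 3.18 against 48.7, 53.4 and 40.3 CPM at 4.5 weeks. Its groups were separate, and the later animals were close to each other (3.41 ± 0.51 SE, adjusted p 0.00023, and 3.73 ± 0.52 SE, adjusted p 3.4e-05). Rsad2, or viperin, which makes a chain-terminating nucleotide, held 1.38, 1.35 and 1.69 against 2.78, 61.8 and 25.5 CPM at 4 weeks and 1.98, 1.14 and 1.43 against 25.6, 16 and 8.31 CPM at 4.5 weeks. Library 2 of 4 weeks was the highest of all (4.35 ± 0.84 SE, adjusted p 0.0015, and 3.45 ± 0.81 SE, adjusted p 0.0022). Ifitm3, which blocks viral fusion in endosomes, rose by 2.37 and 2.18 on the log2 scale (adjusted p 0.00046 and 0.00027).

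The Ifit genes, whose proteins bind RNA lacking the marks of host messenger RNA, were high in library 2 of 4 weeks and modest at 4.5 weeks. Ifit3 held 20.6, 17.1 and 15.1 CPM in the controls and 26.1, 318 and 158 CPM in those labelled cKO at 4 weeks, then 21.1, 13.1 and 14.6 against 77.9, 64.3 and 28.7 CPM at 4.5 weeks. Library 1 of 4 weeks and library 3 of 4.5 weeks were the lowest of the animals labelled cKO, each above its controls. The log2 fold change of Ifit3 was 3.25 ± 0.66 SE (adjusted p 0.0022) and 1.81 ± 0.64 SE (adjusted p 0.024), and the later call was lost without control 2 (0.074), control 3 (0.07), labelled cKO 1 (0.082) or labelled cKO 2 (0.057) of 4.5 weeks. Ifit3b, a near-identical neighbour, held 11.4, 9.14 and 6.24 against 10.2, 87.8 and 46.2 CPM and 9.41, 7.99 and 9.76 against 24.2, 20.8 and 9.51 CPM. It overlapped the controls through library 1 at 4 weeks (2.43 ± 0.58 SE, adjusted p 0.0054) and through library 3 at 4.5 weeks, where it was not called (1.01 ± 0.56 SE, adjusted p 0.13). In the GENCODE M21 annotation 51.2% of the 50-base stretches of Ifit3 recur in Ifit3b, so their reads could be split between them. Ifit1 had log2 fold changes of 3.93 ± 0.74 SE (adjusted p 0.0012) and 1.87 ± 0.69 SE (adjusted p 0.03), the later call being lost without control 2 (0.091), control 3 (0.08), labelled cKO 1 (0.098) or labelled cKO 2 (0.06) of 4.5 weeks. Ifit2 had 2.09 ± 0.496 SE (adjusted p 0.0055), or 1.31 without library 2 labelled cKO. At 4.5 weeks Ifit2 had 1.48 ± 0.49 SE (adjusted p 0.017), lost without control 2 (0.055) or labelled cKO 1 (0.063) of 4.5 weeks.

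Samhd1 and Cmpk2, which act on nucleotides, had the smallest effects of the effectors at 4 weeks. Samhd1, which depletes the deoxynucleotides that viruses need, held 16.8, 20.1 and 17.6 against 20.2, 47.6 and 35.1 CPM at 4 weeks and 20.01, 20.4 and 18.2 against 60.5, 51.1 and 45.8 CPM at 4.5 weeks. Library 1 of 4 weeks was barely above its highest control, and the 3 later animals were all well above theirs. Its log2 fold changes were 0.92 ± 0.23 SE (adjusted p 0.0068), or 0.61 without library 2, and 1.43 ± 0.23 SE (adjusted p 1e-04). Cmpk2, a mitochondrial nucleotide kinase that lies beside Rsad2 in the genome, held 36.1, 31.7 and 39.7 against 33.7, 77.9 and 54.5 CPM at 4 weeks. At 4.5 weeks it held 37.6, 39.9 and 40.2 against 36.5, 32.2 and 27.7 CPM. Libraries 2 and 3 of 4 weeks were above the controls, library 1 was among them, and the 4.5-week libraries labelled cKO all lay below the lowest control. The rise at 4 weeks (0.63 ± 0.22 SE, adjusted p 0.039) was lost without any of 8 libraries: controls 1, 2 or 3 or those labelled cKO 2 or 3 of 4 weeks, and controls 2 or 3 or the library labelled cKO 2 of 4.5 weeks (adjusted p 0.051 to 0.22). Without library 2 labelled cKO of 4 weeks the value of Cmpk2 was 0.299. The value at 4.5 weeks was -0.29 ± 0.22 SE (adjusted p 0.27). Mx2, the other Mx protein, was higher at 4 weeks (2.33 ± 0.54 SE, adjusted p 0.005) and at 4.5 weeks (1.62 ± 0.54 SE, adjusted p 0.018), the later call being lost without control 2 (0.059), control 3 (0.053) or labelled cKO 1 (0.065) of 4.5 weeks.

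The ADP-ribosylating group of Parp9, Dtx3l, Parp12 and Parp14 was higher in full at each time, with median log2 fold changes of 1.90 and 2.20. Parp9, which pairs with the ubiquitin ligase Dtx3l to enhance interferon signalling, held 4.57, 5.17 and 4.45 CPM in the controls and 8.89, 34 and 23.1 CPM in those labelled cKO at 4 weeks. The 4.5-week values were 5.57, 3.86 and 4.36 against 33.1, 34.1 and 23.1 CPM. Libraries 1 and 2 of 4.5 weeks reached the level of library 2 of 4 weeks (2.22 ± 0.37 SE, adjusted p 0.00051, and 2.71 ± 0.37 SE, adjusted p 2.7e-05). Dtx3l held 6.24, 7.72 and 6.45 against 9.17, 32.1 and 19.7 CPM and 8.79, 7.73 and 7.99 against 27.9, 26.4 and 21.5 CPM. It followed Parp9 in the order of the animals at 4 weeks, with less spread (1.58 ± 0.32 SE, adjusted p 0.0021, and 1.63 ± 0.32 SE, adjusted p 0.00054); exons of this pair overlap on opposite strands, which the kit does not separate. Parp12, which restrains viral translation, held 12.6, 13.1 and 10.1 against 14.3, 40.8 and 32.5 CPM and 13, 11.9 and 12 against 42.4, 43.3 and 33 CPM. Its library 1 of 4 weeks was just above the highest control (1.29 ± 0.28 SE, adjusted p 0.0031, and 1.69 ± 0.28 SE, adjusted p 0.00014). Parp14, an ADP-ribosyltransferase, had log2 fold changes of 2.45 and 2.82 (adjusted p 0.00067 and 5.7e-05).

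All 5 interferon-induced GTPases, of families that act on pathogen vacuoles, were higher at each time, with median log2 fold changes of 2.51 and 1.84. Igtp, also called Irgm3, held 5.43, 5.66 and 5.04 CPM in the controls and 10.03, 49.4 and 32.3 CPM in those labelled cKO at 4 weeks. It held 5.98, 4.31 and 4.95 against 21.3, 18.8 and 14.4 CPM at 4.5 weeks. Groups did not overlap (2.51 ± 0.42 SE, adjusted p 0.00052, and 1.84 ± 0.41 SE, adjusted p 0.0015). Irgm1, a regulator of the other vacuolar GTPases, held 8.56, 10.4 and 9.54 against 15.8, 83.8 and 50.5 CPM and 10.6, 7.86 and 9.31 against 51, 50.04 and 38.3 CPM. Its effect differed by -0.07 ± 0.58 SE between the times, which was not called (2.4 ± 0.42 SE, adjusted p 0.00081, and 2.33 ± 0.42 SE, adjusted p 0.00031). The 3 guanylate-binding protein genes among the 44, Gbp2, Gbp3 and Gbp7, had higher log2 fold changes at 4 than at 4.5 weeks, though no such difference was called. Gbp3 held 8.17, 7.88 and 5.3 against 12.2, 83.3 and 49.7 CPM and 8.86, 6.02 and 6.38 against 21.7, 21 and 15.4 CPM. Its groups were separate (2.77 ± 0.499 SE, adjusted p 0.00094, and 1.45 ± 0.49 SE, adjusted p 0.019), and the later call was lost without control 2 (0.06), control 3 (0.059) or labelled cKO 1 (0.051) of 4.5 weeks. Gbp2 held 5.92, 5.66 and 5.91 against 9.95, 44.1 and 31.5 CPM and 7.58, 4.28 and 4.79 against 23.4, 23.1 and 13.7 CPM. These groups did not overlap either (2.29 and 1.85, adjusted p 0.0011 and 0.0017). Gbp7 had 2.53 and 1.48 (adjusted p 0.0017 and 0.015), the later call being lost without control 3 (0.051) of 4.5 weeks.

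The other 8 genes were all higher at each time, with median log2 fold changes of 2.85 and 2.42. Lgals3bp, a secreted scavenger-receptor protein that binds galectins, held 26.7, 28.4 and 25.3 CPM in the controls and 82.1, 272 and 192 CPM in those labelled cKO at 4 weeks. At 4.5 weeks it held 30.1, 21.9 and 25.1 against 507, 428 and 406 CPM. Every 4.5-week library labelled cKO was above every one of 4 weeks, and the groups were far apart (2.76 ± 0.32 SE, adjusted p 3.3e-05, and 4.12 ± 0.34 SE, adjusted p 2.4e-07). Ifi27l2a, a small hydrophobic interferon-induced protein, held 4.37, 2.8 and 2.84 against 13.8, 59.3 and 37.6 CPM and 3.09, 1.69 and 1.3 against 16.5, 21.4 and 11.6 CPM. Library 1 of 4 weeks was already clear of its controls (3.46 and 3.03, adjusted p 0.00013 and 0.00011). Trim30a, a tripartite-motif protein of the mouse, held 3.78, 4.58 and 3.89 against 11.3, 67 and 41.2 CPM and 5.4, 3.27 and 3.56 against 52.5, 54.6 and 31.9 CPM. Its groups were separate, and the difference between the times, 0.22 ± 0.68 SE, was not called (3.29 and 3.51, adjusted p 0.00028 and 4.1e-05). Xaf1, which binds the apoptosis inhibitor XIAP, held 5.31, 4.92 and 3.99 against 7.28, 29.7 and 17.1 CPM and 4.19, 3.86 and 4.68 against 8.32, 10.6 and 5.72 CPM. The later groups were separate by a small gap, and the log2 fold change went from 1.93 ± 0.39 SE (adjusted p 0.002) to 0.95 ± 0.38 SE (adjusted p 0.044). That later call of Xaf1 was lost without any of 9 libraries: controls 1, 2 or 3 or the library labelled cKO 3 of 4 weeks, and controls 1, 2 or 3 or those labelled cKO 1 or 2 of 4.5 weeks (adjusted p 0.056 to 0.16). Ifi44, a cytoplasmic interferon-induced protein, had 4.12 ± 0.82 SE (adjusted p 0.0019) and 2.54 ± 0.81 SE (adjusted p 0.014), the later call being lost without control 2 (0.056) of 4.5 weeks. Ifi35, a leucine-zipper protein, held 4.32, 4.52 and 4.66 against 5.48, 20.6 and 16.4 CPM and 3.77, 2.98 and 4.05 against 14.9, 14.8 and 9.91 CPM. It was separate from its controls with a narrow gap in library 1 of 4 weeks (1.65 and 1.87, adjusted p 0.0032 and 0.00052). Rtp4, a Golgi chaperone of receptors, rose by 2.93 and 2.1, and Sp100, a nuclear body protein, by 1.92 and 2.31.

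Few of the genes were called for a log2 fold change that differed between the times. By the test of the difference itself (log2 fold change at 4.5 weeks minus that at 4 weeks, signs kept), 2 of 44 had a higher log2 fold change at 4.5 weeks and 2 a lower one, where 18.7% of all tested genes were called higher and 21.9% lower. The median difference was -0.45, against -0.03 for all tested genes. Lgals3bp (1.36 ± 0.43 SE, adjusted p 0.023) and Trim25 (0.92 ± 0.34 SE, adjusted p 0.045) were the higher. Adar (-0.46 ± 0.12 SE, adjusted p 0.0098) and Cmpk2 (-0.92 ± 0.31 SE, adjusted p 0.032) were the lower; Adar went from no called change to a fall, and Cmpk2 from a rise to no called change. The call of Lgals3bp was lost without control 2 (0.05) of 4 weeks or control 2 (0.056) or labelled cKO 1 (0.054) of 4.5 weeks. That of Trim25 was lost without any of 8 libraries (controls 1, 2 or 3 or labelled cKO 3 of 4 weeks, controls 2 or 3 or labelled cKO 1 or 2 of 4.5 weeks, adjusted p 0.062 to 0.1). That of Cmpk2 was lost without any of 8 (controls 1 or 2 or labelled cKO 2 or 3 of 4 weeks, controls 2 or 3 or labelled cKO 2 or 3 of 4.5 weeks, adjusted p 0.051 to 0.076).

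The number with a lower log2 fold change at 4.5 weeks turned on 1 animal. Without library 1 labelled cKO of 4 weeks, 18 of the 44 genes had a lower log2 fold change at 4.5 than at 4 weeks, where 20.3% of all genes tested in that fit did: Adar, Cmpk2, Eif2ak2, Gbp3, Gbp7, Ifi44, Ifit1, Ifit3, Ifit3b, Igtp, Irf7, Isg15, Mx2, Oasl2, Rtp4, Stat2, Usp18 and Xaf1. Without any other library the count was 1 or 2. With all libraries the differences of these genes were negative and, apart from Adar and Cmpk2, not called, for example -2.05 ± 0.97 SE in Ifit1 (adjusted p 0.11) and -1.05 ± 1.05 SE in Irf7 (adjusted p 0.47). The count with a higher log2 fold change went to 0 without control 2 of 4 weeks, without control 2 of 4.5 weeks or without the library labelled cKO 1 of 4.5 weeks. It was 3 without the library labelled cKO 2 of 4 weeks, with Samhd1 added to Lgals3bp and Trim25, and 1, Lgals3bp, without control 1 or 3 or labelled cKO 3 of 4 weeks, or control 3 or labelled cKO 2 of 4.5 weeks.

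**Figure D3:**
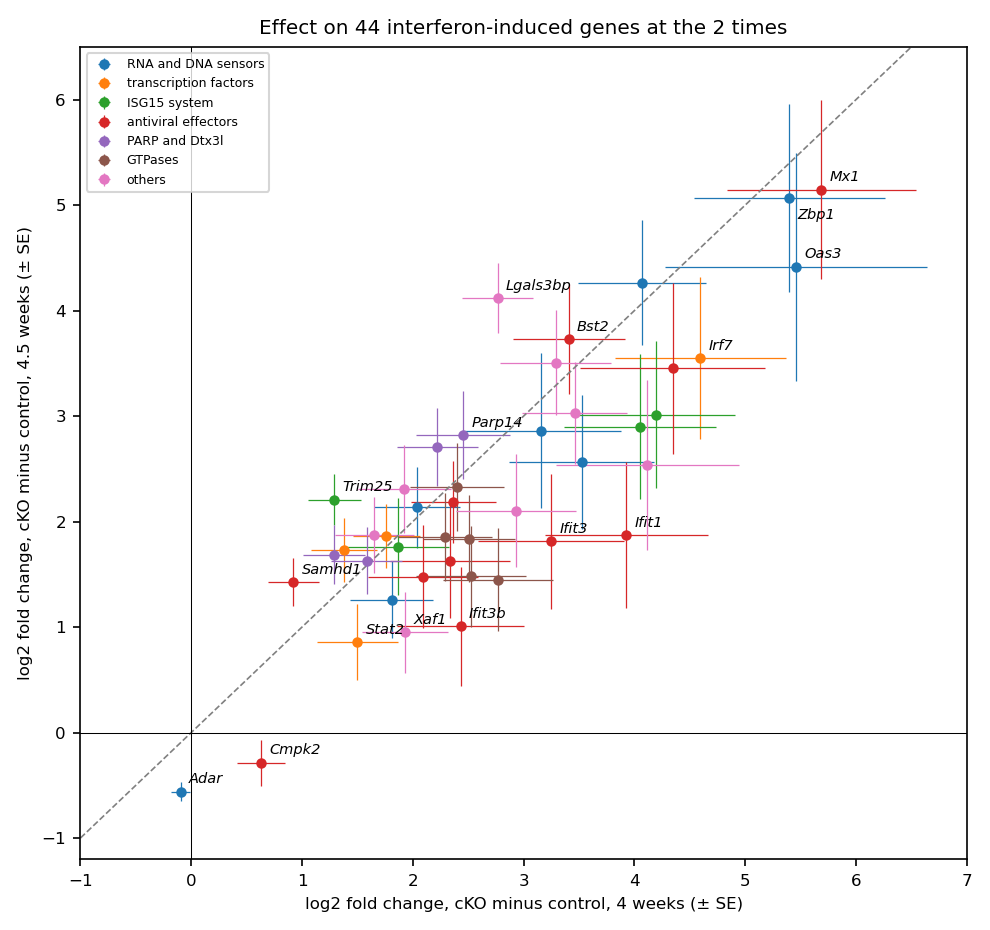
Fitted log2 fold change of each interferon-induced gene at 4 weeks (horizontal) and at 4.5 weeks (vertical), with bars of 1 SE and the line of equal effects. Genes lie on both sides of the line, more of them below it (median difference -0.45). The bars of some, such as Ifit1 and Ifit3, stop short of it. Lgals3bp, Trim25, Samhd1 and Parp9 are among those above, and Adar and Cmpk2 lie at the lower left.

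No difference between the control groups of the times was called in these genes. None of the 44 was called higher or lower in the controls of 4.5 weeks than in those of 4 weeks, by edgeR's quasi-likelihood test, DESeq2 or limma-voom, and none had an unadjusted p below 0.05, where 9.53% of all tested genes were called higher and 7.21% lower. The controls of 4 weeks were male and those of 4.5 weeks female, so time, sex and table cannot be told apart in this contrast. Their summed level was 487 to 496 CPM and 476 to 548 CPM. The 4 groups share 1 estimate of the spread, and the 4-week libraries labelled cKO spread widely in these genes. A difference between the controls could therefore be missed, and the lack of calls does not show that they were level. In Eif2ak2, for example, the controls held 8.96, 8.61 and 10.7 CPM at 4 weeks and 14.9, 13.4 and 14.9 CPM at 4.5 weeks, without overlap.

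Interferon transcripts themselves were at the limit of detection. Of 20 interferon ligand genes in the tables, 14 had 0 counts in all 12 libraries and the others had 13 counts together: Ifng 4, Ifna2 3, Ifnb1 2, Ifnab 2, Ifne 1 and Ifnk 1. The libraries labelled cKO held 2, 1 and 3 of these counts at 4 weeks and 0, 0 and 2 at 4.5 weeks, and the controls 0, 2 and 0 and then 3, 0 and 0. None of the 20 had enough counts to be tested. A count of 0 in a library allows a level of up to 0.0672 to 0.0923 CPM (3 counts on the scaled CPM of each library, counting error alone considered), so at this depth a ligand transcript below that level can go without a count.

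Receptor and kinase genes changed less at 4 weeks and more at 4.5 weeks. Among 10 such genes, 6 were higher and none lower at 4 weeks (0 higher when tested against a 1.5-fold change), and 8 higher and 1 lower at 4.5 weeks, with median log2 fold changes of 0.43 and 0.96; of all tested genes 20.1% were higher at 4 weeks and 33.3% at 4.5 weeks. The log2 fold change was higher at 4.5 weeks in 7 (18.7% of all tested genes) and lower in 1, Jak1, which was the more negative at 4.5 weeks. Ifnar1, a chain of the type I interferon receptor, held 30.7, 33.8 and 35 against 33.1, 30.8 and 32.9 CPM at 4 weeks and 36.6, 37.5 and 33.6 against 72.3, 69.7 and 66.3 CPM at 4.5 weeks. The groups overlapped at 4 weeks (-0.04 ± 0.07 SE, adjusted p 0.69) and were separate at 4.5 weeks (0.95 ± 0.07 SE, adjusted p 6.5e-08), with little spread between animals. Ifnar2, the other chain, had 0.49 ± 0.12 SE (adjusted p 0.0061) and 1.86 ± 0.12 SE (adjusted p 2.6e-08). Ifngr1, of the interferon gamma receptor, held 21.1, 21 and 23.4 against 37.4, 34.7 and 32.6 CPM and 20.6, 20.6 and 20.5 against 105, 93.4 and 99.9 CPM. Its 4-week animals lay close together (0.68 ± 0.07 SE, adjusted p 1.4e-05, and 2.27 ± 0.07 SE, adjusted p 1.1e-10). Jak1 had -0.19 ± 0.07 SE at 4 weeks (adjusted p 0.061) and was lower at 4.5 weeks (-0.55 ± 0.07 SE, adjusted p 1.9e-05), and Ifnlr1, the type III receptor chain, was called at neither time (0.24 and -0.38).

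Most genes for nucleic acid sensing rose. Of 15 genes 10 were higher at 4 weeks and 13 at 4.5 weeks (20.1% and 33.3% of all tested genes), with 0 lower and median log2 fold changes of 1.34 and 2.59. The log2 fold change was higher at 4.5 weeks in 9 (18.7% of all tested genes). The RIG-I gene, listed as Ddx58, held 6.05, 6.8 and 6.6 against 9.58, 56.8 and 34.3 CPM and 9.14, 6.38 and 6.65 against 28.9, 29.6 and 16.1 CPM. It had the order of animals seen in the 44 genes at 4 weeks, highest in library 2 and lowest in library 1 (2.38 ± 0.47 SE, adjusted p 0.0019, and 1.75 ± 0.46 SE, adjusted p 0.0048). Tlr7, an endosomal receptor for single-stranded RNA, held 2.27, 2.28 and 3.1 against 9.26, 14.9 and 11.9 CPM and 2.01, 2.02 and 2.87 against 129, 127 and 111 CPM. It had the same order of animals at 4 weeks, and its level was far higher at 4.5 weeks (2.24 ± 0.19 SE, adjusted p 2.7e-06, and 5.73 ± 0.196 SE, adjusted p 2.1e-10). The DNA sensor cGAS, listed as Mb21d1, rose by 2.05 and 3.2 on the log2 scale (adjusted p 0.00036 and 2.1e-06), and its partner Sting, listed as Tmem173, by 1.31 and 2.61 (adjusted p 0.00056 and 4.5e-07). Tlr3 and the kinase gene Tbk1 were called at neither time.

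Nucleases that clear the cell's own nucleic acid were higher in 4 of 7 at 4 weeks, and 5 were higher and 1 lower at 4.5 weeks, against the same 20.1%, 33.3% and 32.6% of all tested genes. Trex1, the cytosolic DNA exonuclease, had log2 fold changes of 1.07 ± 0.2 SE (adjusted p 0.0012) and 1.16 ± 0.202 SE (adjusted p 0.00022). Dnase2a, the lysosomal DNase, rose by 1.69 and 4.1 (adjusted p 1.9e-05 and 1.7e-09). Rnaseh2a, a subunit of RNase H2, fell at 4.5 weeks (-0.47 ± 0.1 SE, adjusted p 0.0011). Of 6 feedback inhibitors 4 were higher and 1, Ptpn11, was lower at 4 weeks, and 3 were higher at 4.5 weeks, where 33.3% of all tested genes were. With a test against a 1.5-fold change 2 were higher at 4 weeks. Socs3, which blocks Jak kinases, held 2.69, 2.58 and 1.77 against 8.54, 68.3 and 33 CPM and 2.51, 1.79 and 1.54 against 32.6, 30.9 and 34.5 CPM. It was lowest in library 1 of 4 weeks, yet above all controls (3.97 ± 0.57 SE, adjusted p 0.00017, and 4.07 ± 0.57 SE, adjusted p 3.7e-05).

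**Figure D4:**
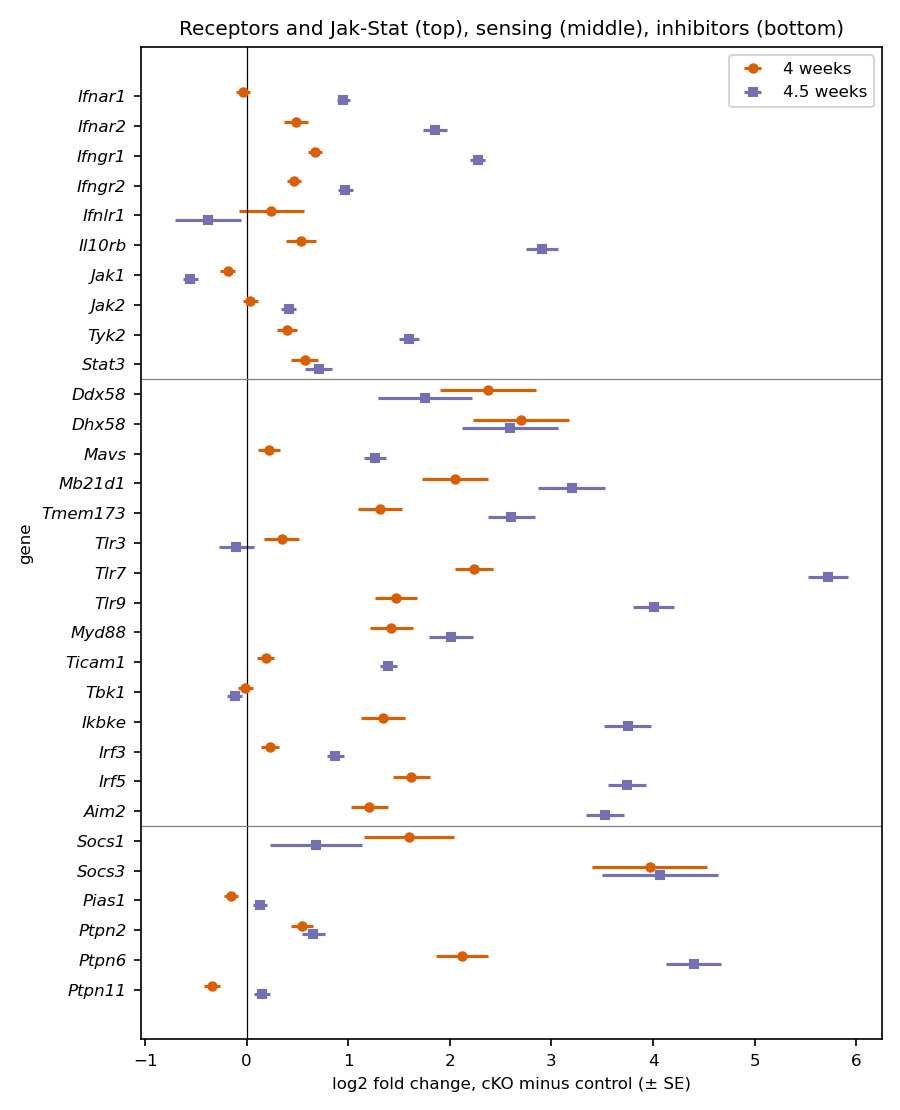
Fitted log2 fold change (horizontal, bars of 1 SE) of receptor and Jak-Stat genes, sensing genes and feedback inhibitors at 4 weeks (circles) and at 4.5 weeks (squares). Many lie further right at 4.5 weeks, such as Tlr7 (2.24 and 5.73), while Ddx58 does not.

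Genes best known as targets of interferon gamma were also higher, all 17 at 4 weeks and 13 at 4.5 weeks (20.1% and 33.3% of all tested genes), with median log2 fold changes of 2.39 and 1.69. Nlrc5, the activator of class I antigen presentation genes, held 1.7, 0.954 and 1.33 against 17.8, 60.5 and 41.8 CPM and 2.33, 1.37 and 2.26 against 37.7, 36.6 and 30.3 CPM. The groups were far apart at each time (4.89 ± 0.41 SE, adjusted p 2.7e-06, and 4.12 ± 0.39 SE, adjusted p 9.2e-07). Psmb8, a subunit of the immunoproteasome, had 2.82 ± 0.37 SE (adjusted p 9.3e-05) and 3.58 ± 0.38 SE (adjusted p 2.9e-06). The 4 not called at 4.5 weeks were Gbp4, Gbp8, Tgtp1 and Tgtp2. Irf8, a factor of microglia and macrophages as well as a target of interferon gamma, was the gene of this list called for a higher log2 fold change at 4.5 weeks (2.46 ± 0.2 SE at 4 weeks, 4.88 ± 0.21 SE at 4.5 weeks, difference 2.42 ± 0.28 SE, adjusted p 2.4e-05).

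Markers of microglia, astrocytes, oligodendrocytes and neurons moved in the same libraries. Of all tested genes 20.1% were called higher and 17.2% lower at 4 weeks, and 33.3% and 32.6% at 4.5 weeks. The summed level of 12 microglial genes was 649.9, 669 and 648 CPM in the 4-week controls and 1580.2, 2737 and 2657 CPM in those labelled cKO. At 4.5 weeks it was 599, 568 and 585 against 10796, 10403 and 9636 CPM. Of these 12 genes 10 were higher and 1 was lower at 4 weeks, and all 12 were higher at 4.5 weeks. All 12 had a higher log2 fold change at 4.5 weeks (18.7% of all tested genes). Library 1 was thus the lowest in microglial markers too at 4 weeks, by a smaller factor than in the interferon-induced genes, and the 4.5-week sum was above every 4-week sum while the interferon-induced sum was not. Of 5 oligodendrocyte genes all were lower at each time, with sums of 17969.7, 13204 and 14731 CPM in the libraries labelled cKO of 4 weeks against 31808, 32996 and 30571 CPM in the controls. Of 5 astrocyte genes 4 were lower at each time and 1 was higher at 4.5 weeks. Their sums were 4377, 2708 and 3519.8 CPM in the libraries labelled cKO of 4 weeks against 5303, 4891 and 5439.8 CPM in the controls, and 5071, 4699 and 4599.9 against 5829, 5959.5 and 5677 CPM at 4.5 weeks. At 4 weeks the astrocyte and oligodendrocyte sums were both highest in library 1 and lowest in library 2, the inverse of the order in the interferon-induced genes. Of the 6 neuronal genes 3 were lower at 4 weeks and all 6 at 4.5 weeks. Lymphocyte markers were sparse: 8 T cell genes summed to 1.54 to 4.31 CPM, 6 natural killer cell genes to 0.0512 to 0.770 CPM and 4 B cell genes to 0.470 to 3.84 CPM over the 12 libraries. Of 4 monocyte genes, Ccr2, Ly6c2 and Plac8 summed to 1.15, 6.38 and 1.78 CPM at 4 weeks and 2.68, 3.83 and 4.27 CPM at 4.5 weeks in the libraries labelled cKO, and to 0.492 to 1.41 CPM in the 6 controls. The other, Vcan, a matrix proteoglycan that other cell types make as well, held 40.02, 61.3 and 50.8 CPM and 342, 300.3 and 290.3 CPM against 29.6 to 38.1 CPM in the controls. Neutrophil genes (5) summed to 2.26 to 11.9 CPM over the 12 libraries. How much of the interferon-induced signal came from more cells of any of these types was not tested.

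**Figure D5:**
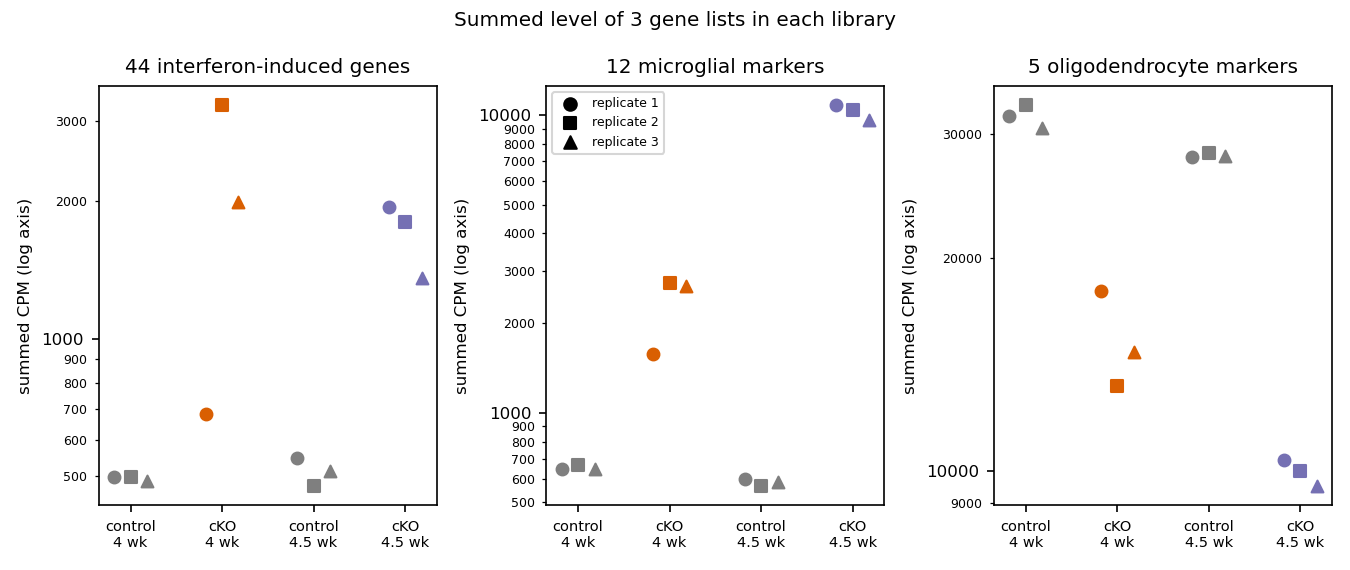
Summed CPM (log axes) of the 44 interferon-induced genes, 12 microglial markers and 5 oligodendrocyte markers in each library, with a symbol for each replicate. The interferon-induced sum is highest in replicate 2 labelled cKO of 4 weeks (3245), the microglial sum is highest in the 4.5-week libraries labelled cKO (9636 to 10796), and the oligodendrocyte sum is lowest there.

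Counts of several of these genes carry a limit from shared sequence. Oas1a shares 57.6% of its 50-base stretches with Oas1g and Oas1b, and Igtp 11.8% with Irgm2. Gbp7, Herc6, Rtp4, Ifi35 and Ifitm3 share at most 12.7% of theirs with other annotated genes, and Trim30a 5.98% with Trim30d. Reads from such stretches may have been divided between the copies, so each gene's own level is uncertain. Of the 11 genes without any shared stretch of that length, 10 were higher at each time, among them Lgals3bp, Ifih1, Bst2, Zbp1 and Rsad2, and Cmpk2 was not.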

How the data were processed

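Spinal cord mRNA of 12 mice was sequenced, and the authors deposited estimated counts per gene in a table for each time, neither scaled for depth nor for length. The submitters' processing notes name STAR, RSEM and build mm39; versions, parameters and the annotation release are not given in the sources used here. Between 3.25% and 3.81% of the values in a library were not whole.

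After rounding, edgeR 4.0.16 (R 4.3.3) was used: filter on low counts (19278 genes kept), scaling by trimmed mean of M values, 1 model with a mean for each of the 4 groups, and the quasi-likelihood F test with Benjamini-Hochberg adjustment over all tested genes, called below 0.05. The groups share 1 estimate of the spread. SE is the fold change over the root of F. The model was also run on simulated counts with 1 fixed spread for all genes and groups. That run does not cover the wide spread of these genes in the 4-week libraries labelled cKO. Other settings included DESeq2 1.42.0 and limma-voom (limma 3.58.1). Members and lists were chosen with earlier results of these data known. From the list of receptors and kinases, 1 gene is not reported here. Genes given by library were, in each role, those with the smallest p or the smallest effect, the 4 largest and 4 smallest effects, those not called, lower or different between times, and those with close copies. Rsad2, Ifi27l2a, Trim30a and the pathway genes given by library were chosen after their values were seen. Proteins were not compared. Shared stretches were counted in GENCODE M21.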

Additional observations from a re-analysis of the deposited data

Results flagged for a closer look

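Each gene below is given because the test of the difference between the times (log2 fold change at 4.5 weeks minus that at 4 weeks, signs kept, edgeR's quasi-likelihood test, all 12 libraries) was called. Values are differences on the log2 scale with their SE.

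Of the 44 interferon-induced genes, 4 are included. Lgals3bp had 1.36 ± 0.43 (adjusted p 0.023) and Trim25 0.92 ± 0.34 (adjusted p 0.045), both higher at 4.5 weeks. Adar had -0.46 ± 0.12 (adjusted p 0.0098) and Cmpk2 -0.92 ± 0.31 (adjusted p 0.032), both lower at 4.5 weeks; Adar was called as a fall at 4.5 weeks alone and Cmpk2 as a rise at 4 weeks alone.

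Among receptor and kinase genes the difference was 0.99 ± 0.096 in Ifnar1, 1.37 ± 0.16 in Ifnar2, 1.6 ± 0.098 in Ifngr1, 0.502 ± 0.101 in Ifngr2 and 2.37 ± 0.21 in Il10rb, the shared chain of the interleukin 10 and type III interferon receptors. It was 0.38 ± 0.11 in Jak2, 1.2 ± 0.14 in Tyk2 and -0.37 ± 0.103 in Jak1, whose log2 fold change went from -0.19 to -0.55.

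Among sensing genes the difference was 3.49 ± 0.27 in Tlr7, 2.54 ± 0.28 in Tlr9, the endosomal DNA receptor, 2.41 ± 0.31 in Ikbke, 2.32 ± 0.26 in Aim2, a sensor that starts inflammasomes, and 2.12 ± 0.25 in Irf5. It was 1.29 ± 0.31 in Tmem173, 1.21 ± 0.12 in Ticam1, 1.05 ± 0.15 in Mavs, the mitochondrial adaptor of RIG-I, and 0.64 ± 0.12 in Irf3. All 9 had the higher log2 fold change at 4.5 weeks.

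The nucleases Dnase2a (2.42 ± 0.25), Rnaset2b (1.25 ± 0.15), Rnaset2a (1.13 ± 0.11) and Rnaseh2b (0.43 ± 0.15) also had higher log2 fold changes at 4.5 weeks; reads of the near-identical Rnaset2a and Rnaset2b may have been divided between them. Irf8, of the interferon gamma targets (2.42 ± 0.28), and the inhibitor Ptpn6 (2.28 ± 0.36) did so too. The inhibitor Ptpn11 went from a called -0.34 to an uncalled 0.15 (0.49 ± 0.11), and Pias1 from -0.15 to 0.13, neither called (0.29 ± 0.097). In Rnaseh2b the call was lost without control 1 (0.11), control 2 (0.061), labelled cKO 1 (0.075) or labelled cKO 3 (0.076) of 4 weeks or control 2 (0.1), control 3 (0.072), labelled cKO 2 (0.063) or labelled cKO 3 (0.092) of 4.5 weeks, and in Pias1 without control 3 (0.083), labelled cKO 2 (0.058) or labelled cKO 3 (0.093) of 4 weeks or control 1 (0.086), labelled cKO 1 (0.063), labelled cKO 2 (0.062) or labelled cKO 3 (0.057) of 4.5 weeks (adjusted p in brackets). The 12 microglial markers, summed in the report, also all had higher log2 fold changes at 4.5 weeks, and their part in these differences was not tested.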

How the results depend on the processing

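Of the 43 genes called higher at 4 weeks, 27 were called under every alternative run. Of the 41 called at 4.5 weeks, 40 higher and Adar lower, 22 were. No interferon-induced gene changed sign in an effect of either time. Over the alternatives, 30 to 43 of the 44 were higher at 4 weeks and 26 to 42 at 4.5 weeks (33 to 42 with a library left out). The number higher at 4.5 weeks was 26 with limma-voom, against 40. It was 42 without library 1 labelled cKO of 4 weeks or with each time fitted alone. The number lower at 4.5 weeks, 1, was 0 against a 1.5-fold change and 2 with each time fitted alone.

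The number with a higher log2 fold change at 4.5 weeks, 2, was 1 with upper quartile scaling or limma-voom and 0 with a sex term, without controls 1 and 2 of 4.5 weeks or against a 1.5-fold change; with a library left out it ranged from 0 to 3. The number with a lower one, 2, was 1 with limma-voom, a sex term or controls 1 and 2 of 4.5 weeks left out, and 0 against a 1.5-fold change; with a library left out it ranged from 1 to 18. The cause was not tested. With the replicate number as a block it was 1, and 42 genes were higher at 4 weeks and 39 at 4.5 weeks. Same-numbered deviations correlated at -0.103, 0.0122 and -0.25 at 4 weeks and 0.0177, -0.0212 and 0.0866 at 4.5 weeks. No pairing by number was seen, though so few animals cannot exclude one, and not every library correlated best with its own number.

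Ddx20 at 4.5 weeks was 0.33 and not called without controls 1 and 2 (adjusted p 0.099) or against a 1.5-fold change (adjusted p 1), and ranged from 0.26 to 0.39 with a library left out. At 4 weeks its range was -0.088 to 0.0014, above 0 without the library labelled cKO 3. Other signs that turned, all uncalled, with the range over the libraries left out, were Ifnar1 (-0.0957 to 0.000247), Jak2 (-0.0167 to 0.0803) and Tbk1 (-0.0786 to 0.0733) at 4 weeks and Rnaseh2c (-0.0488 to 0.124) and Tgtp1 (-0.191 to 0.334) at 4.5 weeks, and Gbp4 (0.0835) without controls 1 and 2 of 4.5 weeks. A sex term can be estimated within the libraries labelled cKO of 4 weeks alone.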
